A study of Homo sapiens with 17 samples.

Results

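MDA-MB-231 is a widely used human line of triple-negative breast cancer, the subtype that lacks hormone receptors and HER2 amplification, and the labels class it as mesenchymal and basal B. The comparison described here sets the 3 libraries made 24 h after TRAIL was added at 45 nM against the 3 libraries labelled 0 h, out of 17 libraries taken between 0 and 24 h. It runs across the 15365 genes with enough counts to be tested, of 58870 entries in the count table. The dose was set below the optimal one so that RNA would come from living rather than dying cells. Both groups are the same line in serum-containing RPMI, and both carry the label of TRAIL treatment, the 0 h cells as the starting point. A later library without TRAIL was not analysed here, and hence the effects of TRAIL and of a further 24 h in culture cannot be told apart. The labels do not say whether replicates came from separate cultures, and p-values therefore measure the spread between these libraries, which may be technical. In bulk RNA, fewer cells of a kind and less RNA per cell cannot be told apart either.

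TRAIL, encoded by TNFSF10, is a ligand of the TNF family that binds the death receptors DR4 and DR5 and, through FADD and caspase-8, can start apoptosis. The same receptors can assemble a second complex that activates IKK kinases and with them NF-kB, a family of transcription factors held in the cytoplasm by IkB proteins. In the canonical branch NFKB1 (p50) and RELA act within minutes to hours. In the non-canonical branch the kinase NIK drives the slower processing of NFKB2 (p100 to p52), which pairs with RELB, and the proteins TRAF3, BIRC2 and BIRC3 keep NIK low. Genes induced by NF-kB include its own inhibitors, anti-apoptotic proteins and cytokines that attract or sustain myeloid cells.

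Promoter stretches of 5 genes are shown first, because they hold, in capitals, letters known as binding motifs of the 3 programmes that recur below: NF-kB, interferon and amino acid shortage. They are RefSeq sequence of GRCh38.p14, 5′ to 3′ on the strand of the gene, from the 250 bases before a gene start given by RefSeq, which in NFKB2 and CHAC1 lies inside the gene as annotated in GENCODE 29, so that both stretches fall within that span.
BIRC3: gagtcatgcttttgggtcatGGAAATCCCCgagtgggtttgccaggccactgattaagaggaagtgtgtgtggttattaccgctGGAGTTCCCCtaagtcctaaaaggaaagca
NFKB2: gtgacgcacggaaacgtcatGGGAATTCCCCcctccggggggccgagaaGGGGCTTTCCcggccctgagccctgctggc
CXCL1: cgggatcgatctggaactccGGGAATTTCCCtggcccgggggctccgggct
CXCL10: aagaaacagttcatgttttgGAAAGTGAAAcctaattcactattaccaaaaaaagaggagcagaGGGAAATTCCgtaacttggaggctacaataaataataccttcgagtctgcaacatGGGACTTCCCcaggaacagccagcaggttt
CHAC1: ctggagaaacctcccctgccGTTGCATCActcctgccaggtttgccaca
The stretches lie at chr11:102317265-102317378 (plus strand), chr10:102394451-102394529 (plus, 1 of 3 starts given for NFKB2), chr4:73869294-73869344 (plus), chr4:76023590-76023738 (minus) and chr15:40953241-40953289 (plus). The NFKB2 start was picked for its kB matches, and no other start of that gene held more. In BIRC3, NFKB2 and CXCL1 the capitals are matches to the kB motif on either strand, with overlapping matches joined. CXCL10 has 1 match to the interferon-stimulated response element, searched on both strands as GAAA, any 2 bases and GAAA again, followed by 2 kB matches. CHAC1 has 1 match to the amino acid response element TGATGNAAN, on the opposite strand. Among the 10572 tested genes with a promoter in the table, 8.12% held a kB match, against 10.5% of those called higher at 24 h and 7.77% of those called lower. The interferon element stood in 3.41% of the tested genes, 4.05% of those called higher and 2.31% of those called lower, and the amino acid element in 2.29%, 2.84% and 1.77%. Over all 35116 promoters in the table the shares were 5.21%, 3.02% and 3.13%. These count single promoters, whereas a gene counted as holding a match if any of its promoters did. Shares of promoters and shares of genes are therefore not comparable. A match is a run of letters and not a measured site.

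Total counts ran from 15889140 to 16396843 at 0 h and from 14182576 to 16513524 at 24 h, and the common biological coefficient of variation of the whole fit was 7.06%. The composition of the libraries differed between the groups. Genes of the mitochondrial genome took 6.75% ± 1.46 of counts at 0 h (SD, n = 3) and 3.90% ± 0.24 at 24 h, a difference that reached the smallest p that 3 against 3 libraries allow (exact two-sided permutation test, p = 0.1). Long transcripts took more of the counts at 24 h than at 0 h. This was measured as the slope, on log2 transcript length, of log2 level relative to each gene's mean over all 17 libraries. The slope was between -0.0636 and -0.0103 in the 0 h libraries and between 0.0215 and 0.134 at 24 h. Among protein-coding genes, those called higher had a median longest transcript of 5186 bases and a GC content of 44.8%, those called lower 2495 bases and 54.3%, and those not called 3546 bases and 48.4%. All results were therefore also fitted with offsets that remove the relation to length and GC content within each library, called the length-adjusted fit below, and whether length and GC account for a given change was not tested beyond that fit. Replicates 2 and 3 at 24 h differed from each other by less than the other 5 pairs of libraries within the groups, with a chi-square per gene of 1.67 against 4.84 to 13.6, which is above sampling noise, and were kept apart. Markers of the labelled cell type were high: the summed level of 9 basal B and mesenchymal markers, such as VIM and CD44, was 8940 to 9370 CPM (counts scaled to the library total) at 0 h and 8090 to 8150 CPM at 24 h. The 9 luminal markers summed to 470 to 502 CPM at 0 h and 365 to 407 CPM at 24 h, mostly KRT19 (mean 441 and 345 CPM), while ESR1, PGR and FOXA1 had at most 2 counts in any of the 6 libraries, and the summed level of 7 leukocyte markers was 1.80 to 2.11 CPM at 0 h and 1.76 to 2.35 CPM at 24 h, with CD3E, MPO and S100A8 at 0. Fibroblast markers summed to 18.5 to 21.8 CPM at 0 h and 19 to 20.4 CPM at 24 h, with DCN at 0. The 5 endothelial markers summed to 3.54 to 5.10 CPM at 0 h and 6.33 to 7.43 CPM at 24 h through PECAM1, at 1.06, 1.31 and 1.93 CPM at 0 h and 3.98, 2.85 and 2.8 CPM at 24 h, while CDH5 was at 0.

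**Figure D1:**
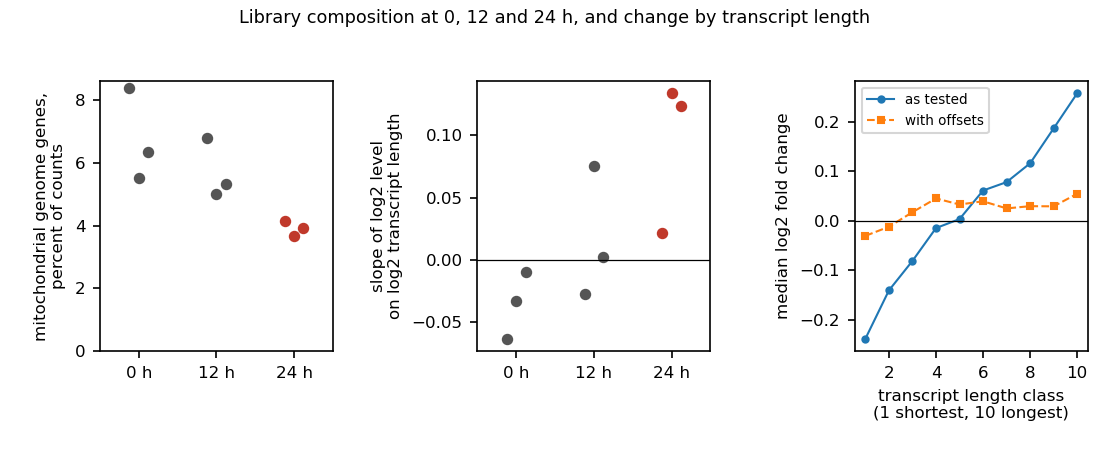
Left, percent of counts from mitochondrial genome genes. Middle, slope on log2 transcript length of log2 level relative to each gene's mean over all 17 libraries. Each point is 1 library at 0, 12 or 24 h. Right, median log2 fold change of protein-coding genes at 24 h against 0 h in 10 classes of transcript length, as tested and in the length-adjusted fit. The median runs from -0.239 in the shortest class to 0.258 in the longest as tested, and lies between -0.03 and 0.055 after the adjustment.

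After 24 h, 2763 genes were called higher (18.0% of those tested) and 2625 lower (17.1%), at a Benjamini-Hochberg adjusted p below 0.05 in edgeR's quasi-likelihood test. Most changes were modest, with a median size of 0.382 on the log2 scale over the 5388 called genes. A change of at least 2-fold was called higher in 84 genes (0.547%) and lower in 212 genes (1.38%). Single libraries weighed heavily on these counts. Without 0 h replicate 1, 1751 genes were called higher, 1693 lower, and 136 lower by at least 2-fold. Without 24 h replicate 2 there were 1861 higher and 1786 lower calls, and without 24 h replicate 3 there were 1967 and 1852. Scaling by library size alone, which leaves the median of all genes 0.072 above 0 on the log2 scale, gave 3742 higher and 1860 lower calls. From here on a gene is said to have risen or fallen only where its call was made again with each of the 6 libraries left out in turn, which held for 1506 genes upward (9.8% of those tested) and 1398 downward (9.1%). These 2 shares are the background for every list below. Of the 5388 called genes, 93.6% did not overlap between the 0 h and 24 h libraries, so a lack of overlap sets few called genes apart. Of the 5388 calls made without that requirement, 4009 were made again in the same direction in the length-adjusted fit. Against the 12 h libraries, 987 genes were higher at 24 h (6.42%) and 860 lower (5.6%). Of these, 266 (1.73%) and 182 (1.18%) were called again with each of the 12 h and 24 h libraries left out, and "between 12 and 24 h" below refers to those calls. RSEM splits reads that fit several genes, and counts were not whole in at least 13 of the 17 libraries for some genes named here, whose values are therefore less certain: APAF1, ASNS, C4A, C4B, CCN2, CFLAR, DDIT3, ERAP1, FTH1, FTL, GBP1, GBP3, GPRC5B, HARS, HLA-B, HLA-C, HLA-F, HSP90B1, HSPE1, HTRA2, HYOU1, ICAM1, IER3, IFIT2, IL24, IL6ST, MAP3K14, NDUFS3, NPC1, NPIPA7, NR1D1, REL, SLC2A3, SNHG7, TAP1, TNFRSF10A, TNFRSF10C, VIM and WWTR1.

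**Figure D2:**
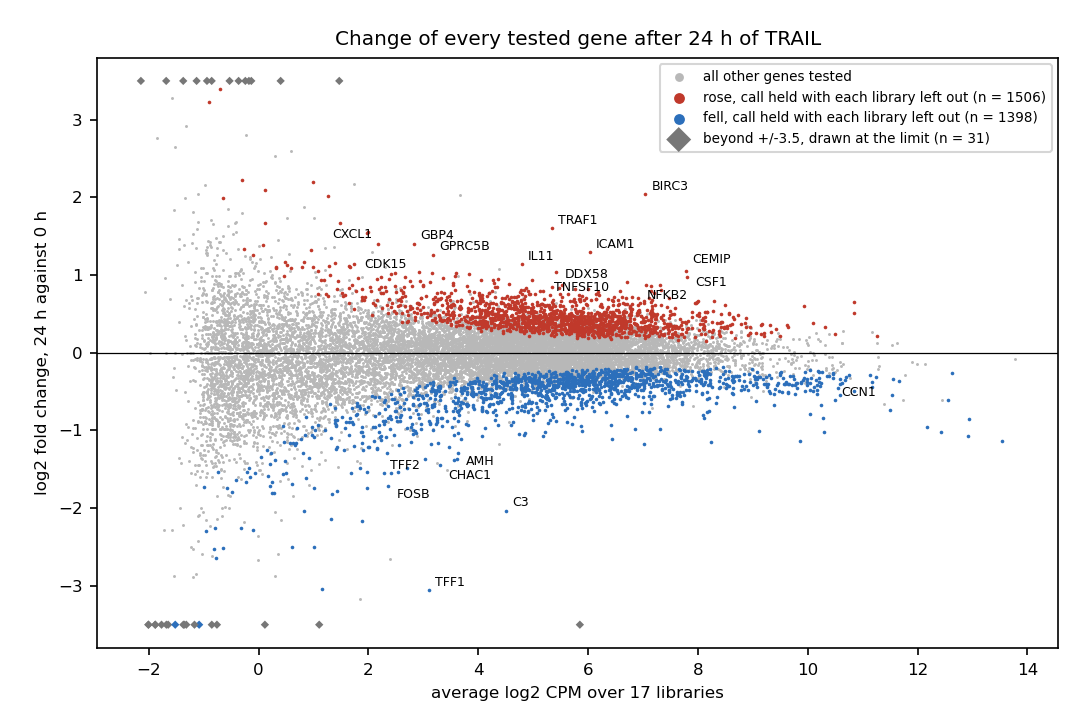
Average log2 CPM over the 17 libraries (x) against log2 fold change at 24 h over 0 h (y) for each tested gene; red and blue mark genes that rose or fell. Diamonds at the edge are 31 genes beyond a log2 fold change of 3.5 in size, of which 30 have counts that are not whole in 1 or more libraries and 2 passed with each library left out.

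Among the 12 genes that rose most by the naming rule were BIRC3, TRAF1, GBP4, CXCL1 and ICAM1. BIRC3 (chr11:102317450-102339403), an inhibitor of apoptosis and brake on NIK, stood at 41.3, 39.8 and 46.5 CPM at 0 h and 161, 189 and 177 CPM at 24 h (log2 fold change 2.04, SE 0.0949, adjusted p = 3.0e-11). TRAF1 (chr9:120902393-120929173), an adaptor of TNF receptors, stood at 14.9, 16.8 and 18.1 CPM at 0 h and 49.3, 53.4 and 48.3 CPM at 24 h (log2 fold change 1.60, SE 0.0761, adjusted p = 2.8e-11). In both genes every 24 h library was more than 2-fold above the highest 0 h library. GBP4, an interferon-inducible GTPase, was at 3.98, 4.17 and 6.1 CPM at 0 h and 10.9, 13.9 and 12.9 CPM at 24 h (log2 fold change 1.41). CXCL1, whose product attracts neutrophils, was at 1.24, 1.18 and 1.62 CPM at 0 h and 4.33, 3.1 and 3.2 CPM at 24 h (log2 fold change 1.39). ICAM1, the adhesion molecule that leukocytes bind, was at 34.3, 40.4 and 40.6 CPM at 0 h and 90.2, 95.7 and 97.5 CPM at 24 h (log2 fold change 1.30). None of these 3 overlapped between the groups, which the naming rule requires. The others of the 12 highest were GPRC5B (an orphan receptor, 1.26), IL11 (an IL6-type cytokine, 1.15), CEMIP (a hyaluronan-degrading protein, 1.05), CDK15 (1.04), DDX58 (the RNA sensor RIG-I, 1.04), POU2F2 (the transcription factor OCT2, 1.02) and NOX5 (an NADPH oxidase, 1.02).

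Among the 12 genes that fell most by that rule were TFF1, TFF2, C3, FOSB and CHAC1. TFF1 (chr21:42362282-42366594), a small trefoil peptide of mucosal surfaces, stood at 14.6, 13.9 and 14 CPM at 0 h and 1.99, 1.49 and 1.6 CPM at 24 h (log2 fold change -3.05, SE 0.146, adjusted p = 2.8e-11). TFF2, its neighbour on chromosome 21 (chr21:42346357-42351128), was at 6.04, 6.85 and 6.53 CPM at 0 h and 1.93, 2.29 and 2.4 CPM at 24 h (log2 fold change -1.55). The third trefoil gene there, TFF3, narrowly missed the threshold (1.37, 2.12 and 1.74 CPM at 0 h and 1.29, 0.806 and 1 CPM at 24 h, log2 fold change -0.75, adjusted p = 0.055) and passed it without 24 h replicate 1 (adjusted p = 0.036) or 0 h replicate 1 (0.04998). All 9 values of these genes at 24 h lay below the lowest 0 h value of the same gene, which the rule requires of TFF1 and TFF2. C3 (chr19:6677704-6730562), the central component of complement, was at 28.7, 33.3 and 34.2 CPM at 0 h and 7.03, 7.99 and 8.54 CPM at 24 h (log2 fold change -2.03, SE 0.132, adjusted p = 4.2e-09). FOSB, an immediate-early subunit of AP-1, was at 8.15, 5.17 and 7.28 CPM at 0 h and 1.87, 2.42 and 2 CPM at 24 h (log2 fold change -1.71). CHAC1, a glutathione-degrading enzyme induced by amino acid shortage, was at 15.1, 14.1 and 11.3 CPM at 0 h and 5.21, 5.33 and 4.34 CPM at 24 h (log2 fold change -1.44). In all 3 the 24 h libraries lay below every 0 h library, again as the rule requires. The remaining genes among the 12 lowest were AMH (anti-Müllerian hormone, -1.36), the pseudogene transcript FER1L4 (-1.36), PSG4 (a pregnancy-specific glycoprotein, -1.29), CPNE7 (a copine, -1.29), C4B (-1.38), NPIPA7 (-1.24) and 1 of 2 entries named TBCE (-1.49). Counts of C4B, NPIPA7 and that TBCE entry were not whole in any library, since near-identical copies exist, and these values are uncertain.

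**Figure D3:**
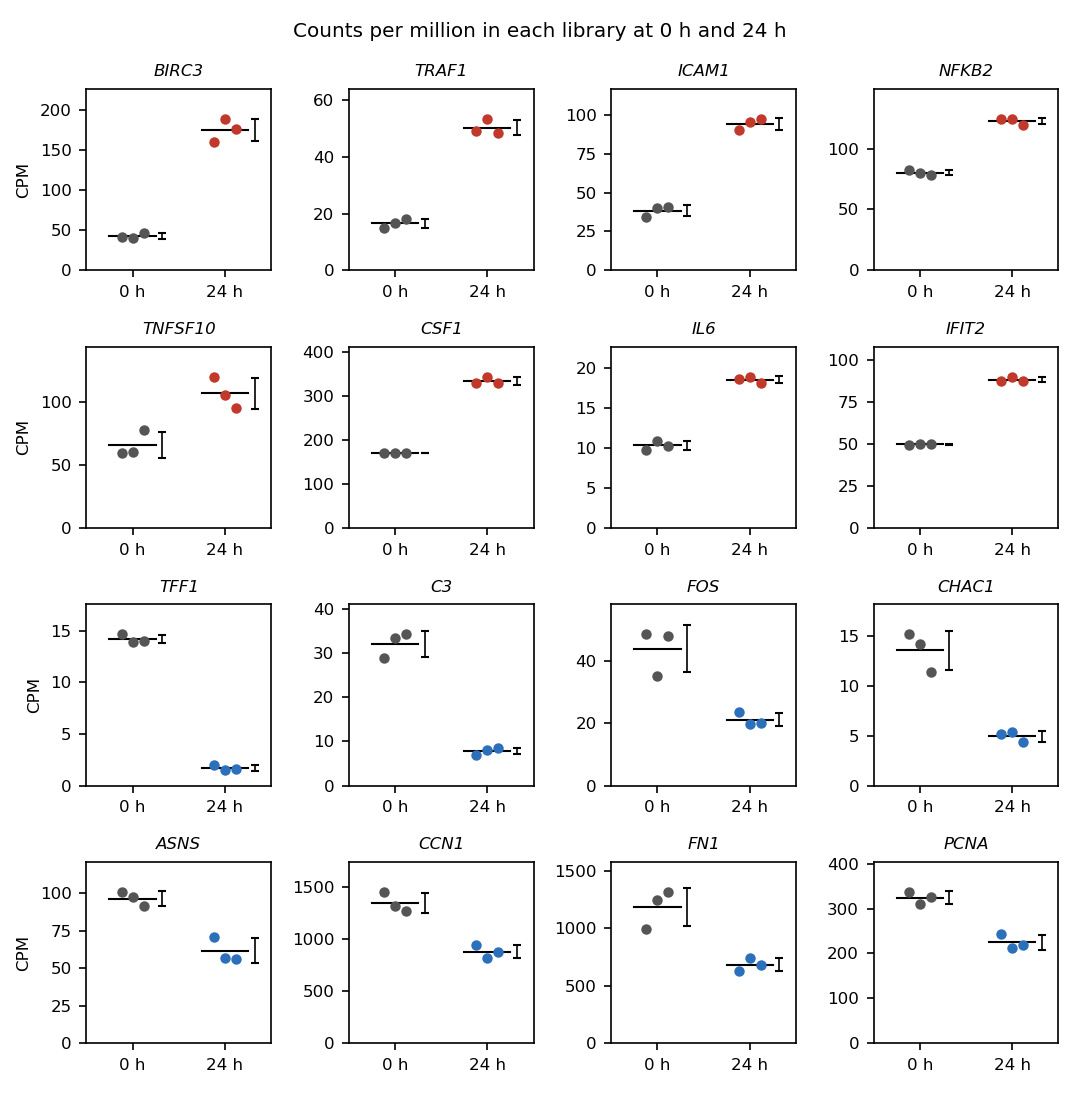
Level in CPM (y, from 0) of 16 genes in each of the 3 libraries at 0 h and at 24 h. Points are libraries, horizontal lines are means and the bars beside them span 1 SD on each side. In each of the 16 genes the groups do not overlap, as in 93.6% of all called genes.

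Of the 5 NF-kB subunit genes, 3 rose and none fell. NFKB2 (chr10:102394110-102402529), the subunit in the title of the series, stood at 82.7, 79.8 and 78.4 CPM at 0 h and 124, 124 and 119.6 CPM at 24 h (log2 fold change 0.61, SE 0.0674, adjusted p = 3.8e-06). Its mean log2 CPM rose by 0.612, and by itself, outside the fit across all genes, the difference had the smallest p possible with 3 against 3 (exact two-sided permutation test, p = 0.1). RELB, the partner of p52, was at 18.2, 20.6 and 21 CPM at 0 h and 36.8, 32.2 and 32.2 CPM at 24 h (log2 fold change 0.76, adjusted p = 4.4e-06), and NFKB1 at 33.2, 40.7 and 38.8 CPM at 0 h and 53.4, 58.5 and 59.5 CPM at 24 h (0.61, adjusted p = 1.4e-04). All 3 were also higher than at 12 h, by 0.29, 0.40 and 0.45, each between 12 and 24 h by a call that held. They had been higher still at 6 h, where NFKB2 averaged 159 ± 5 CPM (SD, n = 3) against 101 ± 6.5 at 12 h and 123 ± 2.72 at 24 h. RELA, the transactivating subunit of the canonical branch, was at 101, 106 and 101 CPM at 0 h and 114, 113 and 108 CPM at 24 h and did not pass the test (log2 fold change 0.12, adjusted p = 0.10), though it was called higher in the length-adjusted fit (0.20, adjusted p = 0.0064). REL, with few counts, overlapped between groups (3.73, 4.86 and 3.42 CPM at 0 h and 3.04, 6.51 and 6.41 CPM at 24 h) and was called higher only without 24 h replicate 1 (log2 fold change 0.688). RELA and REL are named outside the rule for named genes to complete the family.

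Of 9 tested NF-kB inhibitors and co-regulators 6 rose and 0 fell, with a median log2 fold change over the 9 of 0.62 against -0.0017 over all genes, and all 6 were called again in the length-adjusted fit. BCL3, a nuclear IkB protein that binds p50 and p52 dimers, was at 12.7, 14.8 and 12 CPM at 0 h and 25.8, 24.9 and 24.8 CPM at 24 h (log2 fold change 0.93, adjusted p = 7.6e-06). NFKBIA, which encodes IkB-alpha, was at 42.6, 44.2 and 46 CPM at 0 h and 80.2, 76.7 and 72.3 CPM at 24 h (0.79, adjusted p = 6.3e-08). TNIP1, a partner of the deubiquitinase A20, was at 131, 143 and 142 CPM at 0 h and 226, 224 and 225 CPM at 24 h (0.70, adjusted p = 1.4e-08). None of these overlapped between the groups. TNFAIP3 (A20 itself, 0.67), the deubiquitinase CYLD (0.62) and NFKBIE (IkB-epsilon, 0.59) also rose. NFKBIA and TNIP1 were higher at 24 h than at 12 h as well (0.36 and 0.44), while NFKBIE had its highest mean earlier, at 115 ± 6.15 CPM after 3 h compared with 70.8 ± 1.36 after 24 h. Of 8 genes of the list with a promoter in the table, 6 held a kB match: CYLD, NFKBIA, NFKBIB, NFKBIZ, TNFAIP3 and TNIP1.

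Among 7 IKK and NIK kinase genes 2 rose, and 3 more had a call that was lost without 1 or more libraries. IKBKE (IKK-epsilon) was at 14.6, 17 and 15.8 CPM at 0 h and 26.4, 26.8 and 29 CPM at 24 h (log2 fold change 0.79, adjusted p = 1.4e-05). MAP3K14, which encodes NIK, was at 51.1, 54.6 and 48.6 CPM at 0 h and 69.1, 65.9 and 66.6 CPM at 24 h (0.39, adjusted p = 4.2e-04). Of 6 TRAF adaptors, TRAF1 (above) and TRAF3 rose, the latter from 38.6, 42.7 and 42.3 CPM to 53.9, 59.2 and 57.3 CPM (0.46, adjusted p = 1.1e-04), and both were higher than at 12 h (0.78 and 0.38). TRAF3, BIRC3 and BIRC2, which together keep NIK low, were all higher at 24 h, and BIRC2 was at 112, 111 and 119 CPM at 0 h and 168, 179.5 and 178 CPM at 24 h (0.62, adjusted p = 3.7e-05). BIRC2 and BIRC3 were the 2 of 4 inhibitors of apoptosis that rose, and BIRC6 and XIAP had calls that were lost without 24 h replicate 2 (adjusted p = 0.075 and 0.052), that of BIRC6 also without 0 h replicate 1 (0.076) or 24 h replicate 3 (0.064). Of 15 NF-kB effector targets 4 rose and 0 fell: ICAM1 (above), TNFAIP2 (0.56), the peptide transporter TAP1 (0.33) and the stress gene IER3 (0.33). With all libraries kept, 8 of the 15 were called higher and 0 lower, against 9 higher and 3 lower in the length-adjusted fit.

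Of 6 genes of TRAIL and its receptors 4 rose, and their calls held in the length-adjusted fit. TNFSF10 was at 59.9, 60.7 and 78.2 CPM at 0 h and 120.2, 106 and 95.1 CPM at 24 h (log2 fold change 0.69, adjusted p = 1.9e-04), and the lowest 24 h library was above the highest 0 h library. It had stayed near the starting level until 12 h, when it averaged 63.1 ± 2.9 CPM against 66.3 ± 10.3 at 0 h (SD, n = 3), and then rose by 0.76 between 12 and 24 h. The death receptor gene TNFRSF10B (DR5) was at 116, 129 and 119 CPM at 0 h and 167, 174 and 168 CPM at 24 h (0.49, adjusted p = 6.7e-06). TNFRSF10A (DR4) was at 23.1, 23.8 and 25.5 CPM at 0 h and 31.1, 33.7 and 30.6 CPM at 24 h (0.40, adjusted p = 4.3e-04). The decoy receptor gene TNFRSF10D, whose product binds TRAIL without a working death domain, was at 21.3, 24.6 and 24.1 CPM at 0 h and 36.5, 35.7 and 36.9 CPM at 24 h (0.64, adjusted p = 1.1e-05). In these 3 receptor genes the groups did not overlap. The other decoy, TNFRSF10C, had only 6, 5 and 4 counts at 0 h and 16, 18 and 7 counts at 24 h, and its call was lost without 24 h replicate 2. TNFRSF11B, which encodes the soluble decoy osteoprotegerin, was lower (log2 fold change -0.57), a call that was lost without 0 h replicate 1.

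Of 7 genes of the death-inducing complex only CFLAR, the caspase-8 inhibitor FLIP, rose, from 57.4, 61.2 and 64.6 CPM to 73.7, 75.5 and 78.3 CPM (0.31, adjusted p = 4.8e-04), and that call was lost in the length-adjusted fit (0.08, adjusted p = 0.36). Of 8 apoptosome and executioner genes 2 rose and 2 fell. APAF1, the scaffold of the apoptosome, was at 16.9, 20.7 and 19.9 CPM at 0 h and 24.5, 32.7 and 32 CPM at 24 h (0.63, adjusted p = 0.0012). CYCS, which encodes cytochrome c, fell from 258, 259 and 299 CPM to 217, 200.5 and 216 CPM (-0.36, adjusted p = 5.1e-04), and HTRA2, a mitochondrial protease released in apoptosis, fell by 0.33 on the log2 scale (-0.33, adjusted p = 0.0029). Of 14 BCL2 family genes, the pore-forming BAK1 rose (0.32) and BOK fell (-0.27, lost in the length-adjusted fit at -0.04, adjusted p = 0.66). Of 13 p53 target genes TP53INP1 rose (0.50) and GDF15, a stress-induced cytokine, fell from 5.48, 6.17 and 4.98 CPM to 2.46, 2.17 and 2.54 CPM (-1.21, adjusted p = 1.9e-05).

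Among the cytokines CSF1, IL11 and IL6 rose. CSF1, the macrophage colony-stimulating factor, was at 170.4, 169.6 and 171 CPM at 0 h and 329, 343 and 328 CPM at 24 h (log2 fold change 0.97, SE 0.0537, adjusted p = 2.2e-10), and it rose by 0.45 between 12 and 24 h. CSF3 (G-CSF, which drives neutrophil production) had few counts (7, 7 and 6 counts at 0 h and 19, 22 and 12 counts at 24 h) and rose (1.38, adjusted p = 0.0045). CSF2 (GM-CSF) was called higher, but not without 24 h replicate 1, and its mean had fallen from 53.4 ± 4.67 CPM after 3 h to 14.8 ± 3.17 CPM after 24 h (SD, n = 3). Of 11 IL6-type cytokines and receptors 5 rose and all 5 were called again in the length-adjusted fit. IL11 was at 16.4, 14.2 and 14.6 CPM at 0 h and 33.8, 33.3 and 33 CPM at 24 h (1.15, adjusted p = 7.2e-09), and IL6 at 9.83, 10.9 and 10.3 CPM at 0 h and 18.7, 19 and 18.1 CPM at 24 h (0.84, adjusted p = 1.5e-05). The receptor chains LIFR (0.79), IL6ST (gp130, 0.66) and OSMR (0.45) rose with them.

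Of the neutrophil-attracting chemokines 4 could be tested and 2 rose. CXCL8 (interleukin-8) was at 10.6, 9.28 and 14.1 CPM at 0 h and 15.5, 17.1 and 16.8 CPM at 24 h (log2 fold change 0.54, adjusted p = 0.0028), well below its mean of 57.4 ± 4.53 CPM at 3 h, and it fell by 0.59 between 12 and 24 h (-0.59, adjusted p = 0.0034). CXCL1 averaged 10.1 ± 1.15 CPM after 3 h and 3.54 ± 0.684 CPM after 24 h. CXCL2 and CXCL3, named to complete the family, overlapped between 0 and 24 h (4.36, 4.49 and 5.48 CPM at 0 h and 4.39, 4.52 and 4.14 CPM at 24 h for CXCL2, 2.18, 0.872 and 1.62 CPM at 0 h and 1.46, 1.49 and 1.33 CPM at 24 h for CXCL3). CXCL5, CXCL6 and PPBP had too few counts to be tested. Of 6 other chemokines 3 rose. CXCL10, an interferon-inducible attractant of T cells, had 4, 0 and 0 counts at 0 h and 23, 6 and 12 counts at 24 h (log2 fold change 3.23 in the fit, which depends on its treatment of counts near 0). CXCL11, of the same kind, had 10, 5 and 5 counts at 0 h and 33, 30 and 24 counts at 24 h (2.10, adjusted p = 6.0e-05). CX3CL1 (fractalkine) was at 3.36, 3.3 and 3.55 CPM at 0 h and 5.56, 5.27 and 6 CPM at 24 h (0.72, adjusted p = 8.7e-04). Of 8 genes of the IL1 family with IL24 and IL32, IL24 rose (0.98) and IL32 fell (-0.35, lost in the length-adjusted fit at -0.13, adjusted p = 0.083). None of 10 immune checkpoint and adenosine genes rose or fell; CD276 (B7-H3) was called higher (0.23, adjusted p = 0.037), a call that was lost without any of the libraries other than 0 h replicate 2. Of 8 prostaglandin genes PTGES, an inducible synthase of prostaglandin E2, rose from 36.5, 35.2 and 36 CPM to 62, 55.6 and 56.4 CPM (0.69, adjusted p = 1.1e-05), while PTGES2 fell from 70.7, 77.4 and 68.5 CPM to 56.4, 47.7 and 53.2 CPM (-0.46, adjusted p = 4.9e-04).

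Of 25 interferon-stimulated genes tested, 11 rose and 1 fell, with a median log2 fold change of 0.357, which was 0.434 in the length-adjusted fit. DDX58 was at 31.3, 33.2 and 35.9 CPM at 0 h and 63.1, 72.3 and 71.3 CPM at 24 h (1.04, adjusted p = 1.0e-07). IFIT2, whose protein blocks translation of viral RNA, was at 49.5, 49.8 and 50.3 CPM at 0 h and 87.6, 90.1 and 87.4 CPM at 24 h (0.83, adjusted p = 4.5e-08). IFIT1, of the same family, was at 49.5, 43.8 and 49 CPM at 0 h and 85.3, 78.8 and 75.7 CPM at 24 h (0.75, adjusted p = 2.8e-07). In each of them the groups lay far apart relative to the spread of replicates. SAMD9 (0.78), IFIT3 (0.72) and OASL (0.67) rose as well. IFI27 fell, from 93.8, 87.7 and 84.2 CPM to 67.3, 50.9 and 52.4 CPM (-0.64, adjusted p = 3.0e-04). Much of this came late: 8 of the 25 rose between 12 and 24 h and 0 fell, namely DDX58, IFI35, IFI44, IFIT1, IFIT2, IFIT3, OASL and SAMD9. Before that, IFIT2 had averaged 37.9 ± 0.642 CPM at 6 h against 49.9 ± 0.386 at 0 h (SD, n = 3). Of 18 genes of the list with a promoter in the table, 12 held the interferon element shown for CXCL10. Of 4 guanylate-binding proteins 3 rose: GBP4 (above), GBP1 (0.42) and GBP3 (0.35).

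Of 15 antigen presentation genes 4 fell and 2 rose. HLA-B was at 1112, 1158 and 1139 CPM at 0 h and 933, 809 and 808 CPM at 24 h (-0.42, adjusted p = 1.4e-04). HLA-F (-0.42) and HLA-C (-0.33) fell too, HLA-C not in the length-adjusted fit (-0.10, adjusted p = 0.16). The peptide-trimming ERAP1 (0.55) and TAP1 (0.33) rose. Counts of HLA genes were not whole in 16 or more libraries, since the copies share sequence.

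Of 11 complement genes 6 fell and 2 rose, and the median log2 fold change was -0.922. CFB, factor B of the alternative pathway, was at 62.7, 61.8 and 69.1 CPM at 0 h and 36.2, 33.2 and 33 CPM at 24 h (-0.92, adjusted p = 8.3e-08), and C1R, a protease of the classical pathway, at 16.5, 16.3 and 18.5 CPM at 0 h and 8.96, 8.74 and 9.34 CPM at 24 h (-0.92, adjusted p = 3.9e-06). Its partner C1S fell as well (-1.20, adjusted p = 5.3e-04), with 73, 49 and 69 counts at 0 h and 29, 35 and 19 counts at 24 h. C4A was at 11.6, 13.8 and 14.1 CPM at 0 h and 5.04, 5.76 and 6.21 CPM at 24 h (-1.22, adjusted p = 3.2e-06), a value that is uncertain for the same reason as C4B. CD55, a cell-surface regulator that restrains complement, rose (146, 137 and 153 CPM at 0 h and 210.4, 198 and 203 CPM at 24 h, 0.49, adjusted p = 2.5e-05). C3, C1R and CFB had reached their 24 h level by 12 h: C3 averaged 32.1 ± 2.42 CPM after 6 h, 8.57 ± 2.15 CPM after 12 h and 7.85 ± 0.767 CPM after 24 h (SD, n = 3).

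**Figure D4:**
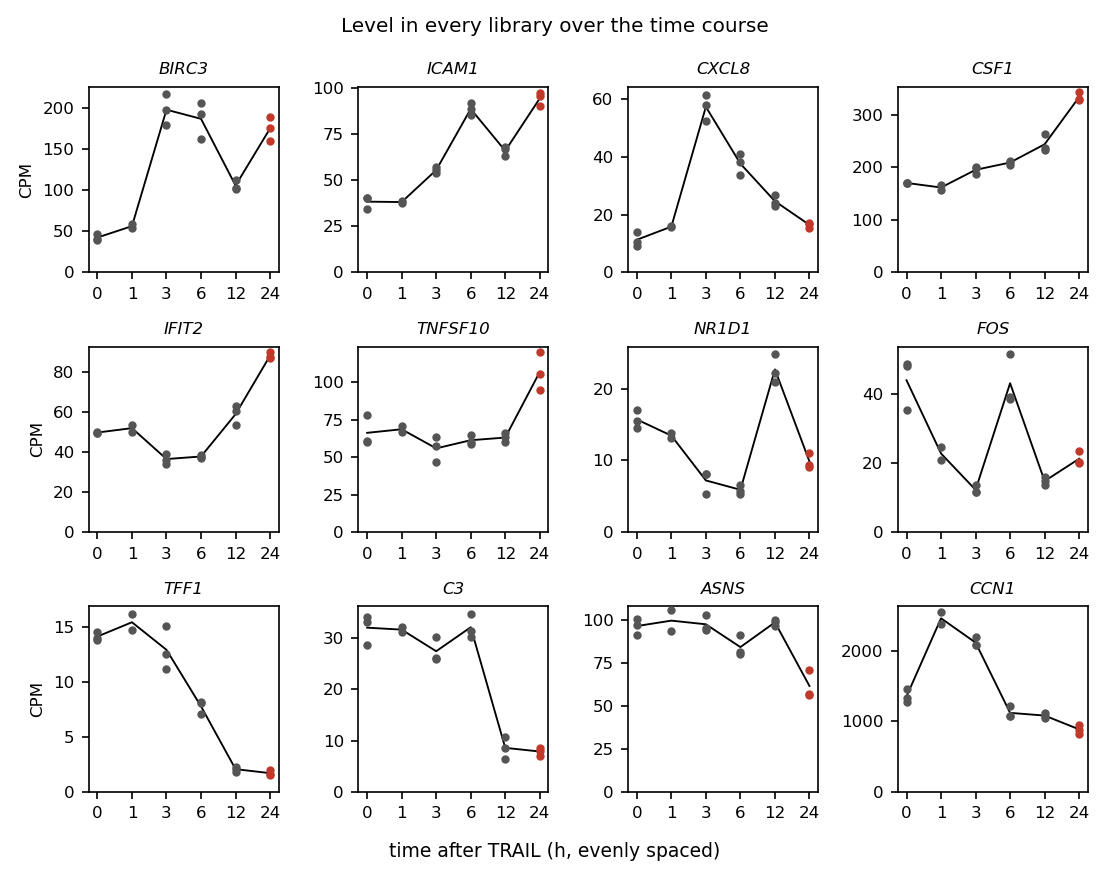
Level in CPM (y, from 0) of 12 genes in each library at 0, 1, 3, 6, 12 and 24 h (x, evenly spaced), with the line through the means; 24 h is red. TNFSF10, IFIT2 and CSF1 are highest at 24 h, CXCL8 peaks at 3 h, C3 and TFF1 stay low from 12 h, and NR1D1 is high at 12 h and low at 24 h.

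Of 16 immediate-early genes, which answer growth factor and stress signals within minutes, 5 fell and 1 rose. The median log2 fold change of the list was -0.262, and -0.0845 in the length-adjusted fit. FOS was at 48.6, 35.3 and 48 CPM at 0 h and 23.5, 19.9 and 20.3 CPM at 24 h (-1.05, adjusted p = 2.1e-05), and EGR1 at 33.9, 31.1 and 38.8 CPM at 0 h and 20.7, 15.2 and 15.2 CPM at 24 h (-1.02, adjusted p = 1.1e-04), falling by 1.15 between 12 and 24 h (-1.15, adjusted p = 1.9e-04). FOSL1, another AP-1 subunit, was at 635, 579 and 541 CPM at 0 h and 462, 395 and 409 CPM at 24 h (-0.47, adjusted p = 3.0e-04), and ATF3 fell by 0.45. FOSL2 went up, at 112, 123 and 117 CPM at 0 h and 192, 228 and 224 CPM at 24 h (0.87, adjusted p = 2.7e-07). FOS varied widely over time, with a mean of 12.2 ± 1.16 CPM after 3 h and 43.1 ± 7.44 CPM after 6 h (SD, n = 3), so that the size of its difference depends on the time set against 24 h. Of 13 feedback genes of the ERK pathway 5 rose and 2 fell. DUSP4 was at 202, 221 and 217 CPM at 0 h and 323, 345 and 338 CPM at 24 h (0.65, adjusted p = 1.3e-07), and SPRED3 (0.87), SPRED1 (0.51), SPRY1 (0.34) and DUSP5 (0.26) rose. DUSP1 fell from 36, 36.1 and 36.4 CPM to 24.8, 24.7 and 26.1 CPM (-0.52, adjusted p = 2.2e-05) and DUSP2 fell with 43, 38 and 34 counts at 0 h and 10, 14 and 10 counts at 24 h (-1.75, adjusted p = 2.7e-05). Of 8 EGF receptor ligands and receptors 4 rose and 0 fell, all ligands: EREG (0.78), TGFA (0.50), AREG (0.36) and HBEGF (0.24). TGFA was at 76.2, 70.9 and 73.9 CPM at 0 h and 102, 105 and 106 CPM at 24 h and was higher than at 12 h (0.25).

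Of 10 TGF-beta pathway genes 5 rose and 2 fell. TGFBR3 was at 7.34, 7.16 and 6.85 CPM at 0 h and 10.2, 14.9 and 13.7 CPM at 24 h (0.86, adjusted p = 1.6e-04), TGFBR2 at 99.6, 108 and 119 CPM at 0 h and 142, 171 and 167 CPM at 24 h (0.56, adjusted p = 6.4e-04) and TGFBR1 rose by 0.44. SMAD3 rose by 0.34 and SMAD2 by 0.23, the latter not in the length-adjusted fit (0.10, adjusted p = 0.31). SMAD7 was at 16, 20.3 and 19.9 CPM at 0 h and 12.9, 12.5 and 13.1 CPM at 24 h (-0.54, adjusted p = 1.9e-04). Of 13 genes of the YAP/TAZ pathway and its targets 3 rose and 2 fell, with a median log2 fold change of 0.045. YAP1, a growth co-activator, rose from 115, 136 and 144 CPM to 172, 214 and 218 CPM (0.61, adjusted p = 0.0027). Its paralog WWTR1 (0.42) and the receptor kinase AXL (0.36) rose too. The 2 that fell were CCN1 (1455, 1321 and 1274 CPM at 0 h and 944, 825 and 881 CPM at 24 h, -0.61, adjusted p = 4.4e-06) and CCN2 (-0.77).

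Of 8 regulators and markers of the epithelial-mesenchymal transition 3 fell and 0 rose. Another 2 were called higher, also in the length-adjusted fit, but those calls were lost without 1 or more libraries. The median log2 fold change of the 8 was 0.0858, and -0.0807 in the length-adjusted fit. FN1 (fibronectin) was at 996, 1245 and 1314 CPM at 0 h and 631, 742 and 680.1 CPM at 24 h (-0.79, adjusted p = 9.9e-05), the repressor gene SNAI2 at 43.5, 44 and 43.6 CPM at 0 h and 30.3, 26.6 and 29.1 CPM at 24 h (-0.61, adjusted p = 7.6e-06) and VIM (vimentin) at 3469, 3349.8 and 3253 CPM at 0 h and 2805, 2495 and 2533 CPM at 24 h (-0.36, adjusted p = 3.0e-04). The 24 h libraries of all 3 lay below every 0 h library. Of 10 matrix protease and inhibitor genes 3 rose and 2 fell. The collagenase MMP1 (47.3, 54.2 and 55.5 CPM at 0 h and 96.5, 89.98 and 90.7 CPM at 24 h, 0.82, adjusted p = 5.0e-07), MMP14 (0.38) and TIMP3 (0.38) rose, and TIMP1 (614, 573 and 561 CPM at 0 h and 427, 343 and 363 CPM at 24 h, -0.62, adjusted p = 2.5e-04) fell. Of 24 collagen, laminin and integrin genes 5 rose and 0 fell, among them ITGA2, a collagen receptor subunit (95.4, 124 and 128 CPM at 0 h and 167, 242 and 222 CPM at 24 h, 0.86, adjusted p = 0.002), ITGA6 (0.51), LAMC1 (0.51) and ITGA5 (0.45). The median longest transcript of this list was 5842 bases, long among all genes tested (3333), and the calls of all 5 that rose held in the length-adjusted fit. With all libraries kept, 8 of the 24 were called higher and 5 lower. The 5 lower calls were made again in the length-adjusted fit, but each was lost without 1 or more libraries.

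Of 20 genes of the ATF4 programme, by which cells short of amino acids or under endoplasmic reticulum stress raise amino acid synthesis and transport, 11 fell and 0 rose, with a median log2 fold change of -0.383, and the median was -0.372 in the length-adjusted fit. ATF4 itself was at 367, 326 and 329 CPM at 0 h and 253, 220.3 and 214 CPM at 24 h (-0.57, adjusted p = 1.4e-05). TRIB3, a pseudokinase induced by it, was at 36.1, 34.3 and 32 CPM at 0 h and 22.2, 18.2 and 20.8 CPM at 24 h (-0.74, adjusted p = 5.2e-06). ASNS (asparagine synthetase) was at 101, 97.4 and 91.5 CPM at 0 h and 71.2, 57.1 and 56.5 CPM at 24 h (-0.65, adjusted p = 1.4e-05). Every 24 h value of these lay below every 0 h value. DDIT3 (CHOP, -0.67), SESN2 (-0.65), PSAT1 of serine synthesis (-0.57) and PCK2 (-0.56) fell along with CHAC1. Of the 20 genes 9 fell between 12 and 24 h: ASNS, ATF4, CHAC1, DDIT3, PCK2, PSAT1, SLC3A2, SLC7A5 and TRIB3. ASNS had averaged 98.7 ± 1.92 CPM at 12 h (SD, n = 3), at the level of 96.6 ± 4.72 at 0 h. Of 16 genes of the list with a promoter, ASNS and CHAC1 held the amino acid element. Of 20 aminoacyl-tRNA synthetases, which charge tRNAs and include ATF4 targets, 6 fell and 1 rose: TARS (-0.28), HARS (-0.27), FARSB (-0.26), KARS (-0.23), GARS (-0.21) and CARS (-0.18) against EPRS (0.34). The calls of GARS and CARS were lost where libraries were scaled by size alone (adjusted p = 0.052 and 0.11).

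Of 19 endoplasmic reticulum chaperones and unfolded protein response genes 8 rose and 1 fell. HYOU1, a chaperone, was at 195, 234 and 225 CPM at 0 h and 288, 323 and 328 CPM at 24 h (0.52, adjusted p = 2.4e-04), and SEL1L, of the machinery that removes misfolded proteins, at 45.6, 56.5 and 62.2 CPM at 0 h and 70.2, 92.3 and 92 CPM at 24 h (0.63, adjusted p = 0.0044). EDEM1 (0.42), CANX (0.38) and HSP90B1 (0.34) rose and CRELD2 fell (-0.37). Of 14 heat shock genes 3 rose and 2 fell. HSPA8, the constitutive HSC70, was at 1147, 1551 and 1497 CPM at 0 h and 2219, 2191 and 2214 CPM at 24 h (0.66, adjusted p = 0.0015), lowest in 0 h replicate 1, and HSPE1 fell (-0.50). Of 12 NRF2 and iron storage genes 4 fell and 2 rose: the ferritin genes FTL (-0.45) and FTH1 (-0.38) and TXN (-0.44) were among those that fell, and GCLM (0.39) and TXNRD1 (0.30) rose. Among 5 metallothioneins MT1F (-1.21) and MT1E (-0.45) fell. Of 10 S100A genes 3 fell and 0 rose, S100A11 (-0.52), S100A10 (-0.49) and S100A4 (-0.48). Both lists consist of short transcripts, with a median longest transcript of 903 and 1072 bases. Their median log2 fold changes were -0.450 and -0.390, and -0.185 and -0.198 in the length-adjusted fit. The 3 and 5 lower calls made with all libraries kept were made again in that fit, where 2 S100A genes were called higher.

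Of 13 mitochondrial protein-coding transcripts 9 fell, with a median log2 fold change of -0.848, which was -0.668 in the length-adjusted fit. MT-CO1 was at 17430.0, 10520.0 and 11999 CPM at 0 h and 6624, 5507 and 6089.6 CPM at 24 h (-1.13, adjusted p = 8.3e-04), and MT-ATP6 at 6503, 4251 and 4875 CPM at 0 h and 2862, 2487 and 2698 CPM at 24 h (-0.96, adjusted p = 0.0011). In both genes 0 h replicate 1 was the highest library by far, and the 24 h libraries lay close together. None of the 13 was called between 12 and 24 h by a call that held. Of 76 cytosolic ribosomal protein genes 47 fell and 0 rose, with a median log2 fold change of -0.356. Another 24 had a call that was lost without 1 or more libraries, and without 24 h replicate 2 or replicate 3 the list gave 47 calls against 71 with all libraries. RPS18 was at 3381, 3287 and 3001 CPM at 0 h and 2466, 2024 and 2129 CPM at 24 h (-0.55, adjusted p = 2.7e-04), and RPLP1 at 827, 830.2 and 741 CPM at 0 h and 629.6, 533 and 526 CPM at 24 h (-0.51, adjusted p = 9.0e-04). These transcripts are short, with a median longest transcript of 1842 bases, and the list's median was -0.226 in the length-adjusted fit. Of 36 nuclear respiratory chain genes 5 fell and 3 rose, with NDUFS3 (-0.42) and ATP5MC1 (-0.38) among those that fell. The median log2 fold change of these 36 was -0.176, and -0.0433 in the length-adjusted fit. With all libraries kept 16 were called lower and 4 higher, against 8 and 3 in that fit. Of 31 proteasome subunits 1 rose and 1 fell.

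**Figure D5:**
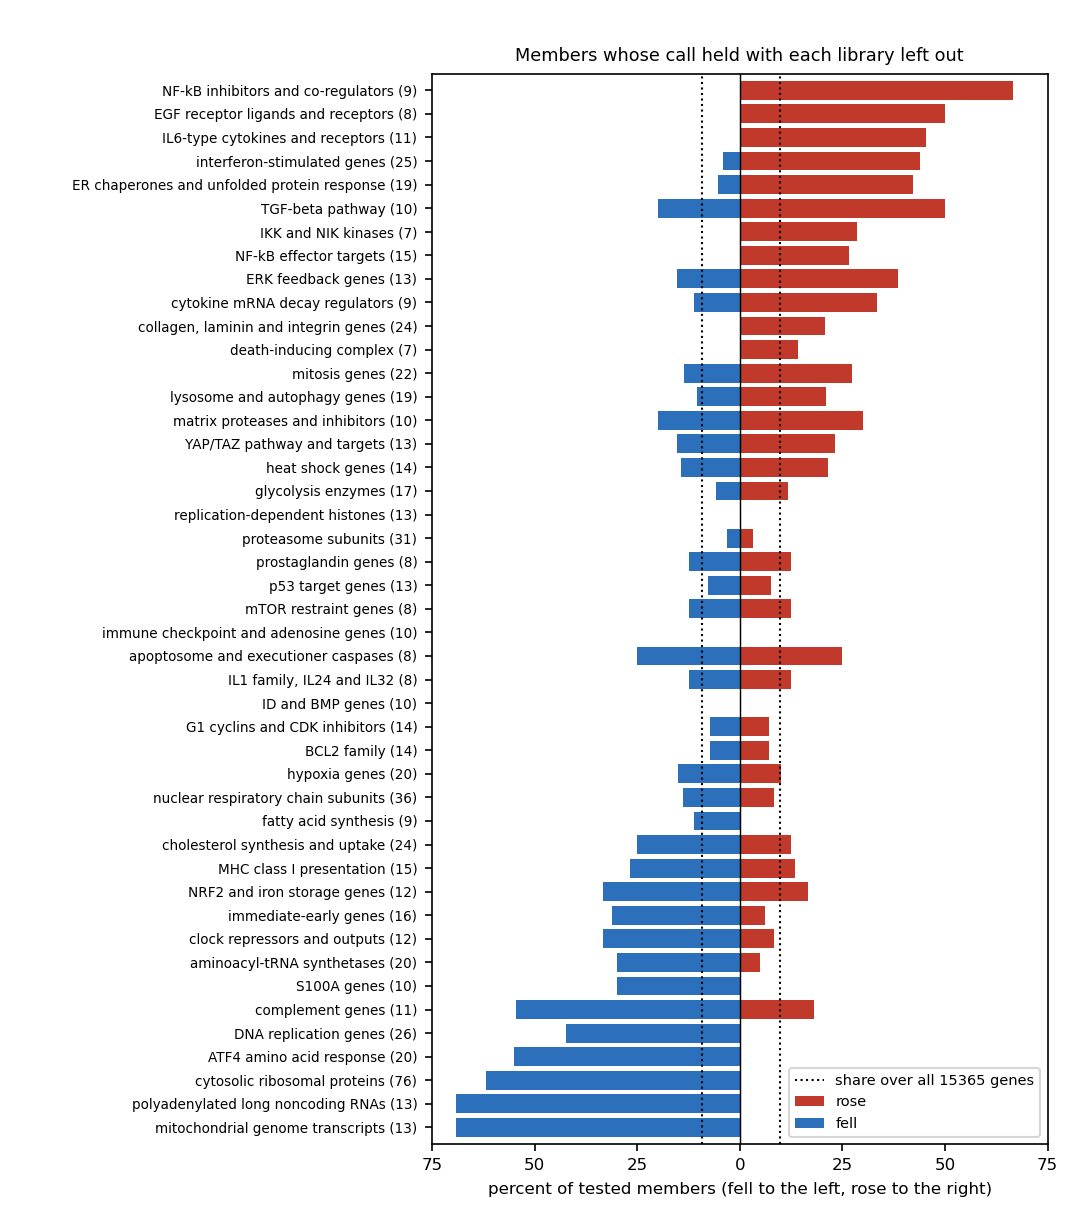
Percent of tested members of each list of 7 or more tested genes that rose (red, right) or fell (blue, left) with a call that held with each library left out; numbers of tested members are in brackets. Dotted lines mark the shares over all genes, 9.8% and 9.1%.

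Of 26 DNA replication genes 11 fell and 0 rose, with a median log2 fold change of -0.183. PCNA, the sliding clamp, was at 336, 309 and 327 CPM at 0 h and 244, 212 and 218 CPM at 24 h (-0.53, adjusted p = 5.5e-06), and GINS2, of the replicative helicase, at 42.5, 40.8 and 43.3 CPM at 0 h and 32.4, 30.4 and 30.2 CPM at 24 h (-0.45, adjusted p = 5.9e-05). POLE (-0.48), CDC45 (-0.43) and CDT1 (-0.40) fell too. PCNA was already at 223 ± 12.4 CPM at 6 h (SD, n = 3), and none of the 26 fell between 12 and 24 h, while MCM2, MCM4 and MCM7 rose then. Of 22 mitosis genes 6 rose and 3 fell. PLK1 was at 72.2, 89 and 79.8 CPM at 0 h and 109, 108 and 103 CPM at 24 h (0.41, adjusted p = 4.4e-04), MKI67 at 356, 401 and 383 CPM at 0 h and 423, 538 and 519.7 CPM at 24 h (0.38, adjusted p = 0.0056) and BUB1 rose by 0.37. AURKB fell from 130.2, 132 and 122 CPM to 92.4, 84.8 and 83.4 CPM (-0.56, adjusted p = 1.6e-05) and UBE2C by 0.43. No replication-dependent histone gene among 13 tested rose or fell, and none was called with all libraries kept, against 2 called higher in the length-adjusted fit. Transcripts of these genes mostly lack poly(A) tails and the libraries were poly(A)-selected, so these counts cannot speak for the full level of histone RNA. Of 14 G1 cyclins and CDK inhibitors, CDK6 rose from 70.4, 77.4 and 78 CPM to 103, 127 and 121 CPM (0.63, adjusted p = 1.8e-04) and CDKN2C fell (-0.23, lost in the length-adjusted fit at -0.13, adjusted p = 0.091).

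Of 12 circadian clock repressors and outputs 4 fell and 1 rose. PER2, a clock repressor, was at 9.52, 9.34 and 8.53 CPM at 0 h and 4.86, 6.07 and 5.54 CPM at 24 h (-0.73, adjusted p = 1.4e-04), TEF at 11.7, 12.8 and 12.9 CPM at 0 h and 7.96, 7.13 and 7.94 CPM at 24 h (-0.70, adjusted p = 7.6e-05) and NR1D1 (REV-ERB-alpha) at 14.6, 17.1 and 15.5 CPM at 0 h and 9.08, 11.1 and 9.34 CPM at 24 h (-0.68, adjusted p = 5.3e-04). BHLHE40 fell (-0.42) and NFIL3, which acts against TEF, rose from 19.2, 16.5 and 17.4 CPM to 26, 22.2 and 23.4 CPM (0.43, adjusted p = 7.5e-04). NR1D1 had a mean of 5.9 ± 0.624 CPM after 6 h, 22.7 ± 2 CPM after 12 h and 9.84 ± 1.1 CPM after 24 h (SD, n = 3), so that it was above its 0 h level at 12 h and below it at 24 h. None of 4 clock activators rose with a call that held.

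Of 20 hypoxia genes 3 fell and 2 rose: CA9 (carbonic anhydrase IX, 23, 23.4 and 20.3 CPM at 0 h and 12.8, 10.4 and 10.7 CPM at 24 h, -0.97, adjusted p = 2.0e-06), ADM (-0.70) and ANGPTL4 (-0.67) fell, and the glucose transporter SLC2A3 rose (18.8, 20.9 and 20.5 CPM at 0 h and 30.2, 36.9 and 33 CPM at 24 h, 0.73, adjusted p = 3.5e-05) with BNIP3L (0.23). Of 17 glycolysis enzymes HK2 (0.26) and PKM (0.22) rose and ALDOC (-0.72) fell. Of 24 cholesterol genes 6 fell and 3 rose. The desaturase gene SCD was the 1 of 9 fatty acid genes that fell, from 222, 223 and 259.8 CPM to 149, 159 and 166 CPM (-0.58, adjusted p = 5.5e-06). Among 8 genes that restrain mTOR, DDIT4 rose from 75.3, 80.9 and 76.8 CPM to 123, 121 and 128 CPM (0.67, adjusted p = 1.4e-06) and SESN2 fell. Of 19 lysosome and autophagy genes 4 rose and 2 fell, with NPC1 up (0.42) and NPC2, its partner in cholesterol export, down (-0.53). Of 9 regulators of cytokine mRNA decay 3 rose, RC3H2 (0.57), ZC3H12C (0.45) and ZFP36L2 (0.45), and HNRNPD fell (-0.29). The kinase gene NUAK2 rose from 4.29, 4.42 and 5.48 CPM to 8.37, 7.25 and 7.81 CPM (0.72, adjusted p = 0.0013). None of 10 ID and BMP genes rose or fell.

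Of 13 named long noncoding RNAs 9 fell and 0 rose, with a median log2 fold change of -0.546. The libraries were poly(A)-selected, and how fully each of these RNAs was captured was not tested. MALAT1, a nuclear RNA, was at 193, 121 and 134 CPM at 0 h and 67.5, 80.00 and 79.3 CPM at 24 h (-0.99, adjusted p = 0.0032), and 0 h replicate 1 was the highest. SNHG7, a small nucleolar RNA host, was at 62.2, 57 and 52.9 CPM at 0 h and 33.7, 30.2 and 33 CPM at 24 h (-0.83, adjusted p = 2.9e-05), and GAS5, also a host and known to build up when translation is blocked, at 213, 194 and 178 CPM at 0 h and 145, 129 and 126 CPM at 24 h (-0.55, adjusted p = 4.2e-04). Over all 1308 lincRNA and antisense entries tested, 39 (2.98%) were called higher and 169 (12.9%) lower, both shares below those over all genes tested (18.0% and 17.1%), with a median log2 fold change of -0.23, against 66 and 134 in the length-adjusted fit. Protein-coding genes made up 97.2% of the genes called higher and 87% of those called lower, against 83.8% of all genes tested.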

How the data were processed

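Paired-end libraries were made from total RNA with a stranded, poly(A)-selecting TruSeq kit, per the labels' protocols. Adapter trimming with cutadapt 1.18, alignment with STAR 2.7.0f and the build hg38 are named in the submitters' processing notes. The authors deposited gene-level expected counts, from RSEM per the file's name, without scaling. The annotation release and the strand setting are not given in the sources used here, so overlapping and antisense genes may share counts. Of these expected counts 10.8% were not whole (tolerance 0.001), and they were rounded. Of 58870 entries 58597 matched GENCODE 29, which gave positions and longest transcripts, and 0 columns lacked a sample.

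Genes were kept by filterByExpr and fitted by edgeR 4.0.16 (R 4.3.3, TMM scaling, robust quasi-likelihood, a mean per time, all 17 libraries), with Benjamini-Hochberg adjustment over 15365 genes. Levels are CPM of TMM-scaled totals. Offsets for length and GC content were natural splines with 5 degrees of freedom. Alternatives used DESeq2 1.42.0, limma 3.58.1 and other scalings, filters and left-out libraries. The fits were also run on simulated, independent libraries with a common spread for all genes. That simulation held no pair of replicates closer by design than the rest, so it cannot speak for the close pair at 24 h. Genes named are NFKB2, the 12 highest and 12 lowest by log2 fold change among calls that held with each library left out, at a mean log2 CPM no lower than 2 and without overlap, and up to 5 called members of each list with the largest change. Names beyond that rule were chosen after their values were seen, and some genes under it are not reported here. The comparison and the gene lists were chosen with earlier results of these data known, so that lists are described and not tested.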

Additional observations from a re-analysis of the deposited data

Results flagged for a closer look

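Among genes of the lists, those called at 24 h against both 0 h and 12 h in edgeR's quasi-likelihood test were searched. In 14 of them every 24 h library lay on one side of the 0 h mean and every 12 h library on the other. The 12 h libraries were set against that mean only, and 12 h was not tested against 0 h. In TNFSF10 and ASNS the 12 h mean lay within the SD of the 0 h libraries. The call against 0 h largely sets the side of the 24 h libraries, and the same count was not made over all genes tested. For IFI35, MARS, OAS3 and TGFB2 the call against 0 h was lost without 1 or more libraries. Values are log2 fold changes at 24 h against 12 h, with Benjamini-Hochberg adjusted p. The largest was in the clock gene NR1D1 (-1.20, adjusted p = 1.0e-05). Genes of amino acid supply were lower: ASNS (-0.68, adjusted p = 6.2e-05) and SLC3A2, a chain of amino acid transporters (-0.62, 3.6e-06). The tRNA synthetase genes GARS (-0.33), TARS (-0.32), CARS (-0.27), KARS (-0.27) and MARS (-0.22) were lower as well, with adjusted p between 0.00075 and 0.012. Genes that were higher at 24 h were TNFSF10 (0.76, adjusted p = 0.00045), the interferon-stimulated IFI35 (0.53, 0.0020) and OAS3 (0.27, 0.033), TGFB2 (0.51, 0.012), the protease inhibitor TIMP3 (0.46, 5.0e-05) and HK2 (0.32, 0.0040). The comparison with 12 h shares the 24 h libraries with the comparison with 0 h.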

How the results depend on the processing

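Of 210 named genes that were called, none changed sign in any alternative and 190 kept their call in all of them. The calls against 0 h of 11 were lost without 1 or more libraries: BIRC6, XIAP, CD276, CSF2, TNFRSF10C, TNFRSF11B, IFI35, MARS, MCM7, OAS3 and TGFB2. Of the uncalled genes, these changed sign. CXCL2 turned from -0.13 to 0.0037 in the length-adjusted fit and 0.0038 with the replicate block added, CXCL3 from -0.12 to 0.0061 and 0.010, NFKBIB from -0.05 to 0.127 and 0.126, NFKBIZ from 0.03 to -0.022 and -0.0245, and SLC7A5 from -0.02 to 0.0246 in both. With library size alone NFKBIB was at 0.0266, SLC7A5 at 0.0548 and CD44 at 0.0227 (-0.05 as tested). With 1 library left out CXCL3 ranged from -0.406 (without 0 h replicate 2) to 0.197 (0 h replicate 1), MCM2 from -0.0237 (0 h replicate 1) to 0.149 (0 h replicate 2), NFKBIZ from -0.0586 (24 h replicate 2) to 0.0905 (24 h replicate 3) and SLC7A5 from -0.0535 (24 h replicate 2) to 0.019 (0 h replicate 2). With replicates 2 and 3 averaged at 24 h and 6 h, genes called higher against 0 h numbered 1709, those against 12 h 275 higher and 177 lower, and those against 6 h 963 higher (1696 as tested) and 948 lower (1865). The cause was not tested beyond the smaller number of libraries. Library size alone gave 1147 genes lower than at 6 h. Without a filter 149 genes were higher by at least 2-fold. The replicate block with length and GC offsets gave 1564 genes higher than at 12 h. Leaving out 1 library at a time gave 1751 to 3002 genes higher and 1693 to 2796 lower than at 0 h, 63 to 102 higher and 136 to 259 lower by at least 2-fold, 338 to 1529 higher and 243 to 1260 lower than at 12 h, and 1265 to 1537 higher and 1358 to 1693 lower than at 6 h. The calls against 12 h thus depended on single libraries, with 338 higher and 245 lower without 12 h replicate 1, 354 and 243 without 24 h replicate 2, 383 and 285 without 24 h replicate 3, and 1529 higher without 24 h replicate 1. The labels number the replicates but do not tie numbers across times. Deviations of same-numbered libraries at 0 and 24 h correlated at 0.0982, 0.0597 and 0.011, too little to take the numbers as pairs, although each 24 h library correlated best with its own number and each 0 h library but replicate 3 did. A replicate block gave 2818 genes higher and 2641 lower.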
